A study of Danio rerio with 12 samples.

Results

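Zebrafish larvae raised in 100 ppb lead (Pb) and in Pb-free water were compared at 120 hours post fertilization (hpf), on 3 arrays of Pb-exposed larvae and the 3 control arrays of the same age, 6 of the 12 arrays of the gene expression experiment. The arrays were taken by their labelled dose and age, and all 37157 targets of the array, where a target is 1 transcript or predicted transcript, entered the comparison. All larvae were wild type (AB strain), and each array held the RNA of 1 pool of 50 whole larvae. Exposure to 0 or 100 ppb Pb, given as lead acetate, began at about 1 hpf and lasted until collection. The other 6 arrays, control and Pb at 72 hpf, entered the fit for the estimate of spread. A standard error from limma is therefore not the spread of the 6 arrays of 120 hpf alone. The control and the Pb array of 1 replicate number form a pair, and a pair ratio is the log2 intensity of the Pb array minus that of its control, so that 1 on this scale is a doubling.

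Whole larvae were homogenized, so each organ was read only through the genes that it expresses, and a lower signal from fewer cells of a type cannot be told apart from less RNA per cell. At this age a zebrafish larva swims, sees and begins to feed. Its pronephros, the larval kidney, filters blood and recovers solutes through transporters of the tubule. The liver and gut handle nutrients and foreign compounds, trunk muscle drives swimming, and the lens is filled with crystallins, the proteins that make it transparent and refractive. Lead is a toxic metal known in mammals for harm to the nervous system, the kidney and heme synthesis.

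Lists of genes were set for the kidney, liver, gut, muscle, eye and other tissues. Only 2663 of the targets (7.17%) have a gene name here, so each organ was seen through a fraction of its genes: 15 named targets for the kidney, 19 for the liver, 8 for the gut and pancreas, 28 for skeletal and heart muscle and 46 for the eye, pigment genes included. Transcripts that define these tissues gave bright signals, among them *mylpfb* of fast muscle, *prss59.1* of the exocrine pancreas, *fabp1b.1* of the intestine and *crybb1* of the lens, at mean control log2 intensities of 15.24, 15.32, 13.40 and 15.08. The median over all targets was 8.83. The table carries no background level, so a dim target cannot be told from background.

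No transcript differed between Pb-exposed and control larvae at 120 hpf by the test across all targets. With p adjusted by Benjamini-Hochberg over the 37157 targets, limma called 0 of them (0%), and the smallest adjusted p was 1. Before adjustment 112 targets (0.301%) had a p under 0.05, of which 66 were higher and 46 lower in Pb-exposed larvae and 13 are named. This split turned with the processing, to 65 higher and 98 lower with the trend of each array with signal removed and to 89 higher and 108 lower with only the arrays of 120 hpf. With no difference at all, a share of 0.05 of the targets would be expected under this p. The 112 fall below that share, so their number is no sign of an effect. The fit did not use the pairs, and with the replicate number as a block 381 had such a p, also below that share. With array weights 2458 had such a p, above that share, and 0 were called after adjustment. Why the p-values of the main fit ran this high was not tested. The test of whether the Pb effect at 120 hpf differed from that at 72 hpf also called 0 targets (0%), and 75 had a p under 0.05 before adjustment, again below that share. The values below are therefore descriptions of these 6 arrays. The methods of the study used 2 looser criteria. Criterion a asks for a p of at most 0.1 in the methods' t-test together with a mean difference of 1.5-fold or more in either direction. Criterion b asks for a difference of 1.5-fold or more, in 1 direction, in each of the 3 pairs. Of all targets, 87 (0.234%) met either criterion, 32 higher and 55 lower with Pb, and 6 met both. Named targets met either at much the same rate, 6 of 2663 (0.225%), 4 higher and 2 lower.

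The named gene with the highest log2 ratio encodes a kidney transporter. *slc22a6l* belongs to the family of organic anion transporters, which in mammals take up drugs, toxins and metabolites from blood in the proximal tubule. Its log2 intensity was 10.41, 11.33 and 10.27 in control replicates 1, 2 and 3 and 11.05, 12.10 and 11.46 in the Pb replicates. Each Pb array lay above its own control, but the groups overlapped, since control replicate 2 lay above Pb replicate 1. The pair ratios were 0.64, 0.77 and 1.2, which made it the only named target to meet criterion b. The means were 10.67 ± 0.576 and 11.54 ± 0.528 (SD, n = 3 arrays each), a 1.82-fold difference (log2 ratio 0.87, standard error 0.333, unadjusted p = 0.0223 and adjusted p = 1 from limma). With the replicate number as a block the unadjusted p was 0.00161, and the adjusted p was again 1. All 12 of its probes were higher on average, 11 of them in every pair, and with each array left out in turn the log2 ratio lay between 0.59 and 1.2.

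*avp*, which encodes the precursor of vasotocin, the fish counterpart of the hormone vasopressin, had the most even pair ratios among the 6 named genes past a criterion. Its log2 intensity was 9.37, 9.77 and 9.12 in the controls and 10.00, 10.43 and 9.70 with Pb. The controls differed among themselves as much as Pb differed from control, so the groups overlapped, but the pair ratios were 0.63, 0.65 and 0.58. The mean log2 ratio was 0.62 (standard error 0.249, unadjusted p = 0.0274 and adjusted p = 1 from limma; unadjusted p = 0.00297 with the replicate block). All 12 probes were higher on average, 10 of them in every pair.

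*slc25a38a* and *tpmt.1* were near their controls in pair 1 and higher in pairs 2 and 3. *slc25a38a* encodes a carrier that brings glycine into mitochondria, where it is a building block of heme. Its log2 intensity was 8.03, 8.15 and 8.04 in the controls and 8.22, 8.93 and 9.04 with Pb, so the groups did not overlap, and its mean log2 ratio was 0.66 (standard error 0.27, adjusted p = 1 from limma). *tpmt.1* encodes a thiopurine methyltransferase, an enzyme that attaches methyl groups to sulfur compounds. Its log2 intensity was 10.38, 10.26 and 10.47 in the controls and 10.47, 11.33 and 11.34 with Pb, with a mean log2 ratio of 0.68 (standard error 0.259, adjusted p = 1 from limma). Pb replicate 1 gave *tpmt.1* the same value as control replicate 3, and its 7 probes were all higher on average.

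The named genes past a criterion in the other direction were *cyp2aa1*, a cytochrome P450 enzyme, and *araf*, a kinase of the RAF family in growth factor signaling. The log2 intensity of *cyp2aa1* was 9.82, 9.72 and 9.79 in the controls and 8.89, 9.37 and 9.16 with Pb. The controls lay close together and every Pb array lay below all of them, with pair ratios of -0.93, -0.35 and -0.63 and a mean log2 ratio of -0.64 (standard error 0.293, unadjusted p = 0.0493 and adjusted p = 1 from limma). All 11 of its probes were lower on average. The log2 intensity of *araf* was 8.33, 8.89 and 8.05 in the controls and 7.92, 7.79 and 7.71 with Pb, also without overlap, with a mean log2 ratio of -0.62. A target's end probes are those at most 500 nt upstream of its final one. For *araf* the final probe is the only one, and its log2 ratio was -0.02. Without control replicate 2 the log2 ratio over all probes was -0.38.

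**Figure D1:**
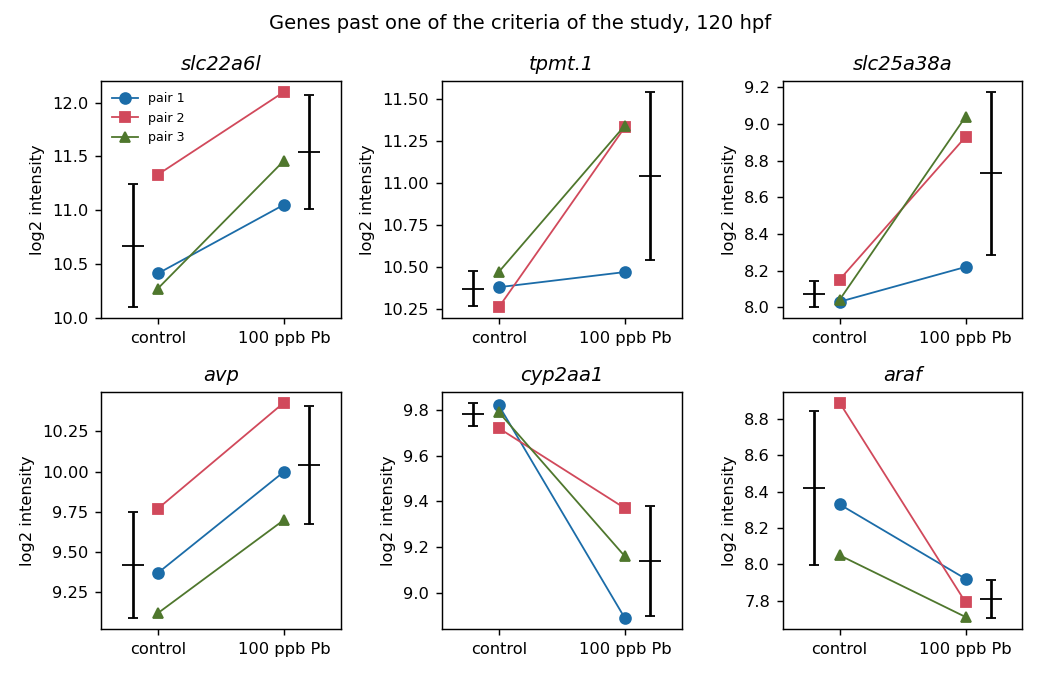
Log2 intensity of the 6 named genes past one of the criteria of the study on the control and 100 ppb Pb arrays of 120 hpf, with a line joining the arrays of 1 pair and black bars giving the mean ± SD of 3 arrays. All 3 lines run the same way for each gene, and only *slc25a38a*, *cyp2aa1* and *araf* have groups that do not overlap.

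Among named targets, the Pb values lay wholly above the control values for 37 (1.39%) and wholly below them for 67 (2.52%). *acte1*, which encodes a muscle actin and was the lowest of its list, had log2 intensities of 13.65, 13.66 and 13.76 in the controls and 13.11, 13.13 and 13.14 with Pb. Both groups were tight (SD 0.0595 in the controls and 0.0129 with Pb), and the pair ratios were -0.54, -0.53 and -0.62. The mean log2 ratio was -0.56, and -0.33 over the end probes (standard error 0.241, adjusted p = 1 from limma). That standard error also draws on the arrays of 72 hpf. *rab21*, a small GTPase of endosome traffic, had pair ratios of -0.43, -0.42 and -0.56. The log2 ratios of *snap47*, a SNARE protein of membrane fusion, and *mterf2*, a mitochondrial transcription termination factor, were both -0.53, and each was carried by 1 pair, at -1.02 in pair 2 for *snap47* and -1.07 in pair 3 for *mterf2*. Over their end probes, 3 each, the values parted, to -0.08 for *snap47* and -1.21 for *mterf2*. *zgc:165409*, of unstated function, was at -0.49. Higher without overlap were *eomesb*, a T-box transcription factor, with pair ratios of 0.39, 0.37 and 0.55, *tbl1x*, a subunit of nuclear corepressor complexes, with 0.51, 0.90 and 0.09, and *xylb*, a xylulose kinase, with 0.21, 0.75 and 0.26. The mean log2 ratio of *eomesb* was 0.44 over all probes and 0.06 over its 1 end probe.

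The other genes in that set had 1 or more pairs close to 0 or a low signal, which also held for *tbl1x* and *eomesb*. *tbl1x* was at 0.09 in pair 3. *eomesb* had a mean signal of 6.55, and its log2 ratio was 0.35 with the signal trend removed. *chrm5a*, a muscarinic acetylcholine receptor, had pair ratios of 0.73, 0.02 and 0.71, *ccdc43* had 0.02, 0.78 and 0.31, and *casp6b.2*, a caspase, had 0.00, 0.53 and 0.51. *actl6b*, a neuronal subunit of a chromatin remodeling complex, had 0.42, 0.09 and 0.95, *drc11*, of the dynein regulatory complex of cilia, 0.45, 0.24 and 0.90, and *smtnl1*, a smoothelin-like protein, 0.31, 0.14 and 0.92. The last 3 were highest in pair 3. In that pair the dimmest quintile of targets, at mean signals of 5.15 to 6.84, had a median ratio of 0.31. *drc11* and *smtnl1*, at mean signals of 6.14 and 6.75, lay in that quintile. *actl6b*, at 7.57, lay in the next quintile (6.84 to 8.2), where the median ratio of pair 3 was 0.01. The mean log2 ratios of *actl6b*, *drc11* and *smtnl1* were 0.49, 0.53 and 0.46. With the trend of each array with signal removed they became 0.46, 0.42 and 0.40.

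The 3 pairs did not carry the same pattern across the array. The SD of the pair ratio over all targets was 0.252, 0.488 and 0.404 in pairs 1, 2 and 3. Across targets, which are not independent replicates, the ratios of pair 1 correlated with those of pair 2 at r = -0.40 and with those of pair 3 at 0.26, and those of pairs 2 and 3 at -0.15. In pair 3 the median ratio was 0.31 in the dimmest quintile of targets and -0.08 in the brightest. In pair 2 it was 0.13 in the quintile with the shortest targets, by the position of the last probe, and -0.10 in the quintile with the longest. The gradient of signal along a target from its first to its last probe, over 21779 targets, was 0.147 on control replicate 2 and 0.468 on Pb replicate 2, the widest gap of the 3 pairs, against 0.401 and 0.272 in pair 1 and 0.27 and 0.203 in pair 3. The part of these trends in the organ values below was not tested as a cause, and list values with the signal trend removed are given beside the main ones.

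**Figure D2:**
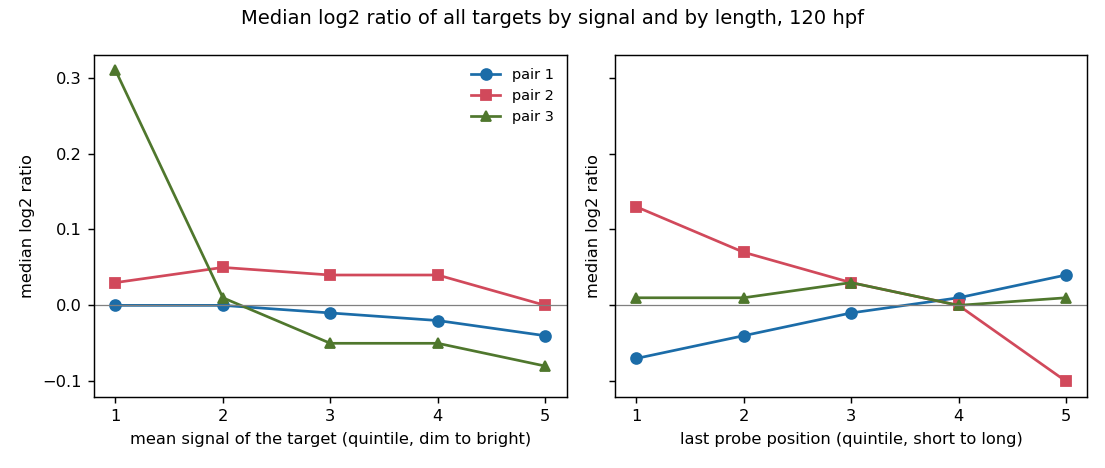
Median log2 ratio of Pb over control in each pair, over quintiles of all targets by mean signal (left) and by position of the last probe (right). Pair 3 departs from 0 in the dimmest quintile (0.31), and pair 2 runs from 0.13 in the shortest targets to -0.10 in the longest.

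In the kidney, 11 tubule genes were measured, of which 8 had a mean log2 ratio above 0 and 3 below, with a median of 0.07 against 0.00 over all targets. By pair, the median was 0.02, 0.13 and 0.10. Of the 11, 2 were higher in all pairs, *slc22a6l* and *slc13a3*, against 9.8% of named targets. With the trend of each array with signal removed, 1 of the 11 was higher in all pairs, against 224 of 2663 named targets. *slc13a3* encodes a sodium-coupled transporter of dicarboxylates such as succinate, which in mammals supplies the organic anion exchangers of the tubule. Its log2 intensity was 8.96, 9.04 and 8.68 in the controls and 8.97, 10.14 and 9.49 with Pb. Pair 1 was at 0.01, while pairs 2 and 3 were at 1.09 and 0.81, and the mean log2 ratio was 0.64 (standard error 0.275, unadjusted p = 0.0381 and adjusted p = 1 from limma). Over its 3 end probes alone it was -0.10, and without Pb replicate 2 it was 0.34 over all probes.

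The other tubule genes differed in sign between pairs. *trpv6*, an epithelial calcium channel that larvae also use in skin ionocytes, had pair ratios of -0.01, 0.67 and 0.24. *slc22a4*, a carrier of organic cations and carnitine, had 0.30, -0.07 and 0.65, and its relative *slc22a7a*, an organic anion transporter, -0.05, 0.11 and 0.04. *gatm*, the first enzyme of creatine synthesis and the brightest of the list, had 0.05, -0.17 and 0.33. *ca15a*, a membrane-bound carbonic anhydrase that is also in the list for skin and ionocytes, had the lowest mean, -0.26, from -0.09, 0.13 and -0.82. The remaining 3 of them, *rhcga*, *slc34a2b* and *kcnj1b*, which move ammonia, phosphate and potassium, had means of 0.01, -0.06 and -0.11. None of these 8 lay on one side of control in all pairs.

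*havcr1*, whose mammalian counterpart is a marker of tubule injury, was at 7.73, 7.36 and 7.69 in the controls and 7.63, 7.94 and 7.51 with Pb. Its values overlapped, with pair ratios of -0.11, 0.58 and -0.18 and a mean log2 ratio of 0.10 (standard error 0.23, adjusted p = 1 from limma). Of 4 genes of the glomerulus and of kidney development (median 0.04, and 0.02 with the signal trend removed and -0.03 without Pb replicate 3), *irx3b*, a transcription factor that patterns the tubule, was higher in all pairs at 0.22, 0.24 and 0.13, and *kirrel3l*, a relative of the filtration barrier protein nephrin, had 0.11, -0.30 and 0.26. Left-out arrays moved the median of the tubule list between 0.13 and 0.29, the highest without control replicate 2, and with the signal trend removed it was 0.08.

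**Figure D3:**
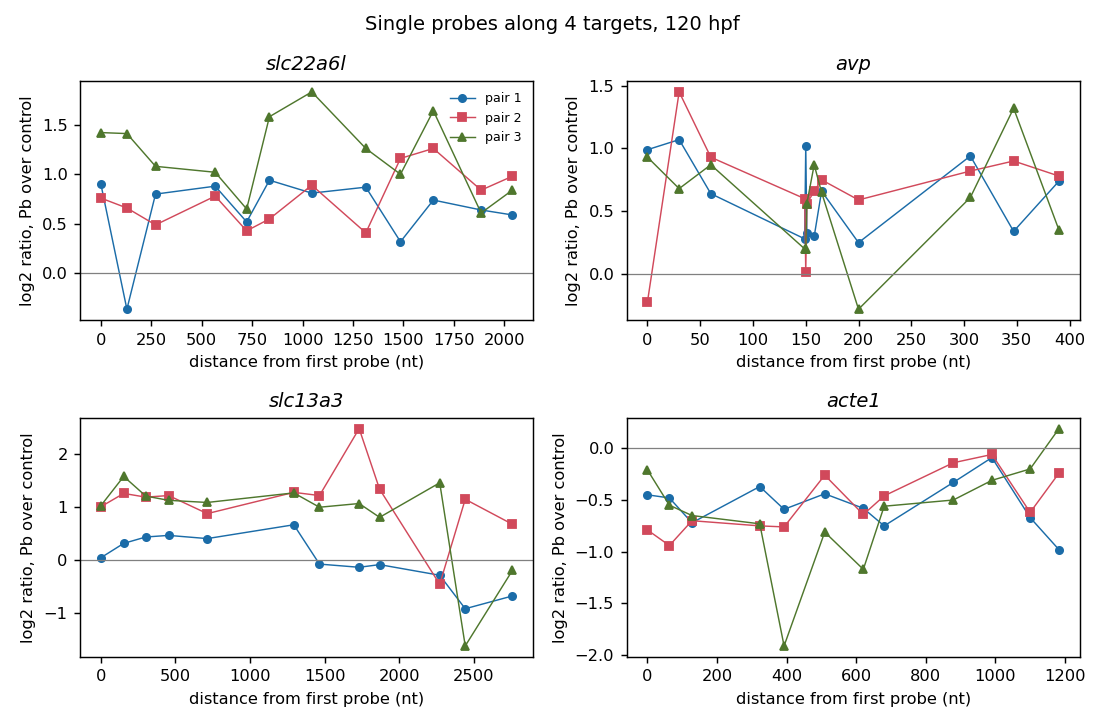
Log2 ratio of Pb over control for single probes of 4 targets, against the distance of each probe from the first probe of its target, with 1 line per pair. Nearly all probes of *slc22a6l* and *avp* lie above 0 and nearly all of *acte1* below it, in every pair, whereas the last 3 probes of *slc13a3* scatter around 0.

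In the liver, the 7 measured genes of secreted plasma proteins had 3 means above 0 and 4 below, with a median of -0.01, which was -0.01 with the signal trend removed too and turned to 0.05 without Pb replicate 1. *gc*, the vitamin D binding protein, had pair ratios of -0.11, 0.15 and 0.06, and *leg1.2*, a secreted liver protein, was lower in all pairs at -0.13, -0.41 and -0.04. Of 12 targets of liver metabolism and detoxification, 2 lay above 0 and 10 below it (median -0.09), and 4 were lower in all 3 pairs, against 12.5% of named targets. The pair medians were -0.15, 0.02 and -0.30, so pair 2 did not share the lower values. With the signal trend removed the median was -0.08, and 2 of the 12 (16.7%) were lower in all pairs, against 12.6% of named targets. Without Pb replicate 2 the median was -0.22, and without Pb replicates 1 and 3, each in turn, it was -0.05 and -0.03. *cyp2x9*, a cytochrome P450, had pair ratios of -0.57, -0.07 and -0.35 (mean -0.33, and -0.08 without Pb replicate 1), and *cyp2aa4*, of the family of *cyp2aa1*, had -0.40, -0.41 and -0.26. The levels of *cyp2aa4* ranged widely between pairs, from 6.56 to 8.82 in the controls, and left-out arrays turned its sign, to 0.26 without control replicate 2 and 0.17 without Pb replicate 1. *ugt5a1*, a glucuronosyltransferase that makes foreign compounds water soluble, was higher in all pairs at 0.56, 0.43 and 0.23, with all 12 probes higher on average (log2 ratio 0.41, standard error 0.285, adjusted p = 1 from limma). With 1 array left out its log2 ratio lay between 0.15, without Pb replicate 2, and 0.66, without control replicate 2. *abcg2a*, an efflux pump and the brightest of the list, was at -0.09.

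In the gut, all 6 measured intestinal genes had a mean log2 ratio below 0, against 56.6% of named targets, with a median of -0.23. Only 1 of them, *cdx1b*, a homeobox factor of intestinal identity, was lower in every pair. Its log2 intensity was 7.43, 7.97 and 7.64 in the controls and 7.15, 7.59 and 7.25 with Pb, with pair ratios of -0.28, -0.38 and -0.39 (mean -0.35, and -0.21 without control replicate 2; standard error 0.209, adjusted p = 1 from limma). Its paralog *cdx1a* had 0.02, -0.36 and -0.29. *fabp1b.1*, a fatty acid binding protein of enterocytes, had -0.43, 0.19 and -0.77 over its 3 probes. The peptide hormones *gip* and *ghrl* had -0.39, 0.18 and -0.56 and 0.25, -0.40 and -0.24, and *ada*, adenosine deaminase, had 0.13, -0.22 and -0.54. The mean signals of *cdx1a*, *cdx1b*, *gip* and *ghrl* were 7.6, 7.51, 7.42 and 6.47, below the median of 8.83 over all targets. Those of *fabp1b.1* and *ada*, 13.23 and 10.57, lay above it. The pair medians were -0.13, -0.29 and -0.47, and the list median was -0.25 with the signal trend removed and -0.15 without Pb replicate 3. Over the end probes the median of pair 2 was 0.10.

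The exocrine pancreas was seen only through 2 of the 56 genes listed for the pancreas, the digestive enzymes *prss59.1*, a trypsin, and *amy2al2*, an amylase. Both were lower with Pb without overlap, against 2.52% of named targets. Both were bright, and in pair 3 bright targets tended to lie lower with Pb. *prss59.1* was at 15.28, 15.35 and 15.34 in the controls and 15.16, 15.15 and 14.83 with Pb. *amy2al2* was at 13.76, 13.50 and 13.79 in the controls and 13.42, 13.44 and 13.37 with Pb, just below the lowest control. Each had a mean log2 ratio of -0.27, and their median was -0.21 with the signal trend removed. The ratios came with standard errors of 0.331 and 0.511 (adjusted p = 1 for each from limma), and both genes had 3 of 12 probes higher on average.

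Of 25 measured genes of skeletal muscle, 23 had a mean log2 ratio below 0 and 2 above, with a median of -0.18. In all 3 pairs 15 (60%) were lower, against 12.5% of named targets, and 8 (32%) were lower without overlap, against 2.52%. The pair medians were -0.12, -0.07 and -0.24. The thick and thin filament genes among the 8 were *acte1*, *myl13*, a myosin light chain, *tpm2*, a tropomyosin, and *tnnc1b*, a troponin C. *myl13* was at 13.96, 14.18 and 14.14 in the controls and 13.87, 13.89 and 13.54 with Pb. *tpm2* was at 14.34, 14.37 and 14.34 in the controls and 14.12, 14.29 and 14.18 with Pb, and *tnnc1b* at 13.50, 13.51 and 13.57 against 13.19, 13.47 and 13.37. In both of these the gap between the groups was narrow, with pair 2 the closest to control.

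The other 4 of the 8 were *ampd1*, the AMP deaminase of muscle, *casq1b*, a calcium store protein, *hhatla*, an acyltransferase-like protein, and *mef2ca*, a transcription factor of muscle differentiation. *ampd1* had pair ratios of -0.20, -0.14 and -0.61, *casq1b* had -0.12, -0.07 and -0.64, and *hhatla* had -0.17, -0.21 and -0.54. *mef2ca* was at 8.68, 8.80 and 8.77 in the controls and 8.41, 8.12 and 8.55 with Pb, lowest in pair 2 (mean log2 ratio -0.39, and -0.17 over its 1 end probe; standard error 0.24, adjusted p = 1 from limma). The skeletal actin *acta1b* and the brightest target of the list, the myosin light chain *mylpfb*, had -0.16, -0.10 and -0.49 and -0.01, -0.07 and -0.53. Above 0 were *pfkmb*, a phosphofructokinase of glycolysis, at 0.19, 0.75 and -0.15, and *tpm1* at -0.28, 0.23 and 0.24.

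Most muscle targets were bright, with a median signal of 12.60, and in pair 3 bright targets tended to lie lower with Pb. With the trend with signal removed from each array, the muscle median was -0.12 and 21 of 25 lay below 0. Then 10 (40%) were lower in all pairs, against 12.6% of named targets, and 6 (24%) were lower without overlap, against 2.44%. Over the end probes 18 of 25 lay below 0 and the median of pair 2 was 0.06. With each array left out the median lay between -0.22 and -0.14. Of 4 heart muscle genes 3 lay above 0, with a median of 0.13, and *myh6*, the atrial myosin heavy chain, had pair ratios of 0.30, 0.54 and 0.16 (mean 0.33, standard error 0.271, adjusted p = 1 from limma). Without control replicate 2 the heart median was -0.04 and *myh6* was at 0.06, and the median was 0.12 with the signal trend removed and 0.02 over the end probes. *tnni1b*, a troponin I that is also in the skeletal list, had -0.49, 0.50 and -0.02.

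**Figure D4:**
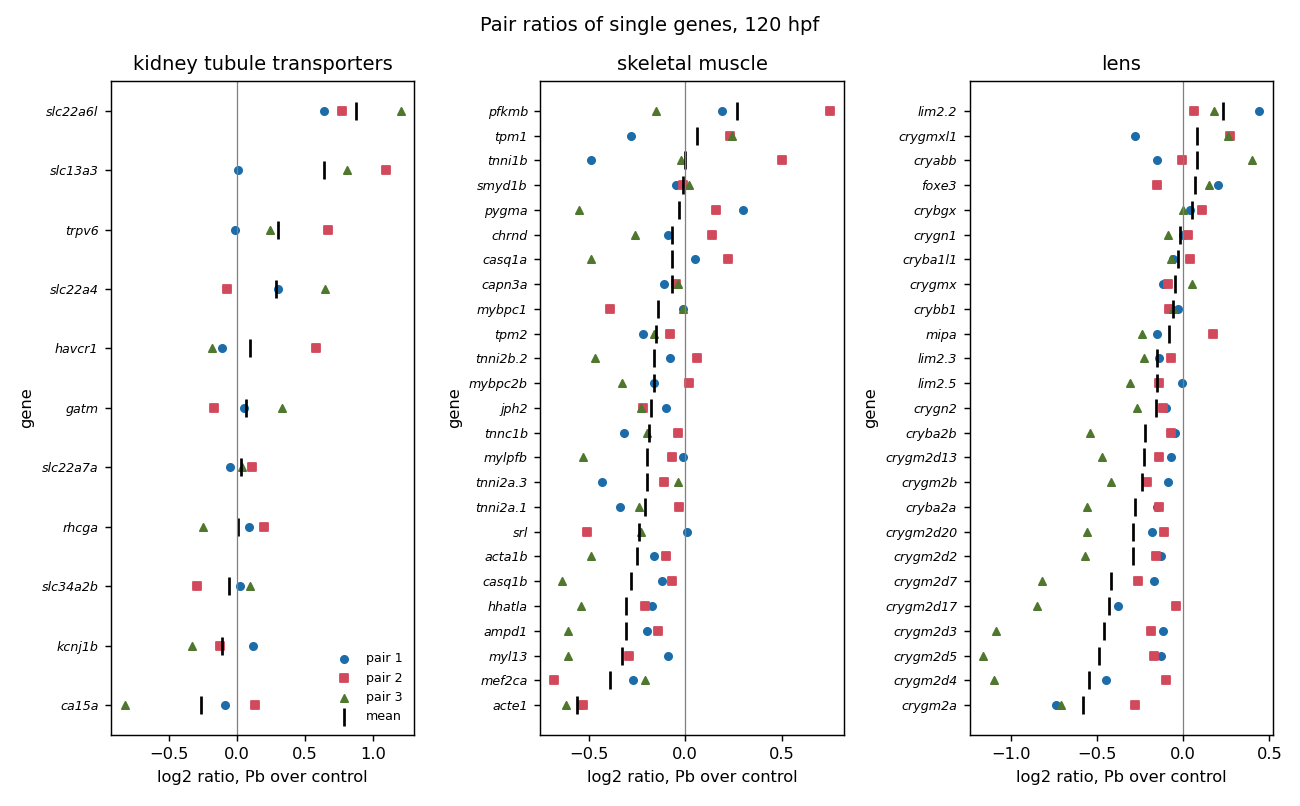
Pair ratios (symbols) and mean log2 ratio (black bars) of each measured gene of the kidney tubule, skeletal muscle and lens lists, ordered by the mean. Muscle genes and gamma-crystallins lie mostly below 0, whereas the tubule genes spread on both sides of 0 with *slc22a6l* at the top.

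In the eye, the lens gave a similar count to muscle. Of 25 measured lens genes, 20 had a mean log2 ratio below 0 and 5 above, with a median of -0.17. In all 3 pairs 16 (64%) were lower, against 12.5% of named targets, and 7 (28%) were lower without overlap, against 2.52%. The lower end of the list was made of gamma M crystallins. *crygm2d5* was at 14.92, 15.12 and 15.00 in the controls and 14.78, 14.95 and 13.84 with Pb, *crygm2d3* at 14.96, 15.07 and 15.11 against 14.84, 14.88 and 14.03, and *crygm2d4* at 12.75, 12.65 and 12.56 against 12.29, 12.54 and 11.46. In each of the 3 the Pb array of pair 3 stood far below the other 2, and the ratios of pairs 1 and 2 were between -0.45 and -0.10. Over its 2 end probes the mean log2 ratio of *crygm2d4* was 0.07, against -0.55 over all of its probes. *crygm2d17*, *crygm2d7*, *crygm2d2*, *crygm2d20* and *crygm2d13* had the same shape, with mean log2 ratios of -0.43, -0.42, -0.29, -0.29 and -0.23. The crygm2d genes are near-identical copies, so their probes may share signal and they are not separate measurements. The 7 lens targets lower without overlap were all crygm2d genes. Their share, and the counts of lower lens genes that include them, are therefore not counts of separate measurements. *crygm2a* was at 8.02, 9.18 and 8.43 in the controls and 7.28, 8.90 and 7.72 with Pb, with pair ratios of -0.74, -0.28 and -0.71 (mean -0.58, standard error 0.482, adjusted p = 1 from limma).

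Other lens genes differed less. The beta crystallins *cryba2a* and *cryba2b* had pair ratios of -0.15, -0.14 and -0.56 and -0.05, -0.07 and -0.54, while *crybb1*, the brightest lens target, had -0.03, -0.08 and -0.06. *lim2.3* and *lim2.5*, membrane proteins of lens fibers, were lower in all pairs with means of -0.15 each, and their relative *lim2.2* was higher in all pairs at 0.44, 0.06 and 0.18. *mipa*, the lens water channel, had -0.15, 0.17 and -0.24, and *foxe3*, a transcription factor of the lens epithelium, had 0.20, -0.15 and 0.15. The pair medians of the list were -0.12, -0.10 and -0.31, and in pairs 1 and 2 together 18 of 25 (72%) lay below 0 in both, against 20.9% of named targets. With the signal trend removed the median was -0.12, and 17 lay below 0, against 1554 of 2663 named targets. Of the 25, 15 (60%) were then lower in all pairs and 5 (20%) lower without overlap, against 12.6% and 2.44% of named targets. Without Pb replicate 3 the median was -0.06, against -0.23 to -0.14 with any other array left out.

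Single genes of the retina differed in direction. Of 11 photoreceptor genes 5 lay above 0 and 6 below, with pair medians of -0.14, -0.13 and -0.16. Their list median of -0.10 turned to 0.04 without control replicate 2 and to 0.07 without Pb replicate 3. With the signal trend removed it was -0.08, and 8 of the 11 lay below 0, against 1554 of 2663 named targets. *grk1a*, a rhodopsin kinase, was lower in all pairs at -0.37, -0.79 and -0.16 (mean -0.44, and -0.18 without control replicate 2; standard error 0.321, adjusted p = 1 from limma), as were *sagb*, an arrestin, at -0.18, -0.16 and -0.73, and *rs1a*, retinoschisin, at -0.15, -0.01 and -0.29. *pde6hb*, the inhibitory subunit of a photoreceptor phosphodiesterase, had 0.06, -0.35 and -0.15. Of 10 genes of retinal interneurons, ganglion cells and pigment, 8 lay below 0, with pair medians of 0.13, -0.43 and -0.10. The RNA came from whole larvae, so the pigment genes of this list were not read from the eye alone. *pmela*, a protein of the pigment granule, was at 11.17, 11.94 and 11.32 in the controls and 10.97, 11.39 and 10.57 with Pb (mean log2 ratio -0.50, standard error 0.653, adjusted p = 1 from limma). That mean was -0.23 with median polish, -0.11 over its 1 end probe, -0.27 without control replicate 2 and -0.30 without Pb replicate 3. *dct*, a melanin synthesis enzyme, had -0.15, -0.36 and -0.32, and *rgra*, a retinal opsin, -0.01, -0.32 and -0.56. *pou4f3*, a factor of sensory neurons and hair cells, was higher in all pairs at 0.07, 0.37 and 0.41. The median of this list was -0.21, the same with the signal trend removed, and 0.02 without control replicate 2.

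**Figure D5:**
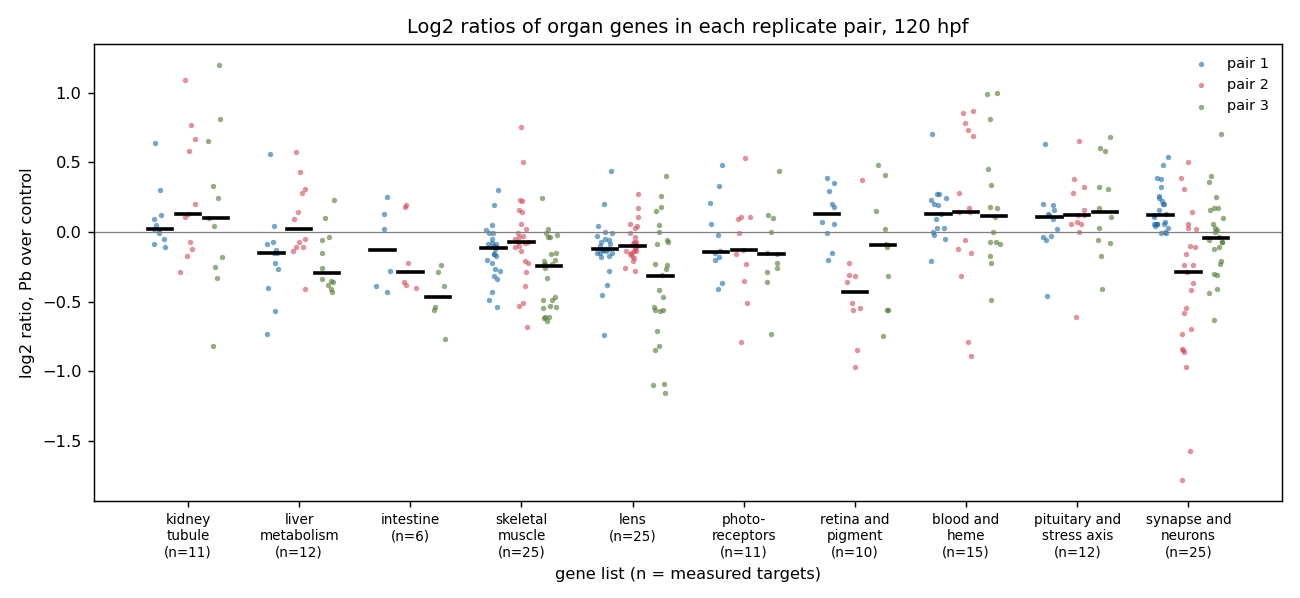
Pair ratios of all measured targets of 10 gene lists (points), with black bars at the median of each pair. The medians of skeletal muscle, lens, intestine and photoreceptors lie below 0 in every pair. Those of kidney tubule, of blood and heme, and of pituitary and stress axis lie above 0 in every pair. That of synapse and neurons is at 0.12, -0.29 and -0.04.

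Among genes of red blood cells and heme, 11 of 15 had a mean log2 ratio above 0, with pair medians of 0.13, 0.14 and 0.11. The list median was 0.09, which was 0.08 with the signal trend removed and 0.17 without Pb replicate 1. *slc25a38a* led this list. *epoa*, the hormone erythropoietin, had pair ratios of 0.00, 0.69 and 0.81, and its receptor *epor* had 0.24, 0.85 and -0.07. The signal of *epoa* was low, at a mean of 6.55. Its mean log2 ratio of 0.50 was 0.41 with the signal trend removed and 0.32 with median polish. *aco1*, which in mammals also senses iron, had 0.27, 0.87 and 0.00. Of the globins, the embryonic *hbbe3* was dim and higher in all pairs at 0.20, 0.17 and 0.18, a mean of 0.18 that was 0.05 with the signal trend removed, and the bright *hbae3* had 0.13, -0.12 and -0.17. *ppox*, an enzyme of heme synthesis, had 0.27, -0.15 and 0.11.

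Of 12 genes of pituitary hormones and the stress axis, 8 lay above 0, with pair medians of 0.11, 0.12 and 0.14. In all pairs 5 genes of this list were higher, against 9.8% of named targets. Beside *avp* these 5 included *stc1*, stanniocalcin, a calcium-lowering hormone of fish, at 0.12, 0.12 and 0.68, *hcrt*, the wake-promoting peptide hypocretin, at 0.09, 0.06 and 0.60, and *smtlb*, a somatolactin, at 0.19, 0.28 and 0.03. *stc1*, *hcrt* and *smtlb* were dim, at mean control signals of 6.73, 6.27 and 6.11, and the list median of 0.13 was 0.07 with the signal trend removed. With that trend removed 3 of the 12 were higher in all pairs, against 224 of 2663 named targets. *crhbp*, which binds corticotropin-releasing hormone and was the brightest of the list, had -0.03, 0.06 and -0.08, and *per1b*, a clock gene, had 0.16, -0.61 and -0.17. *pomca* has no named target here.

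The pairs also disagreed in the neuronal list. Of 25 genes of synapses and neurons, 8 lay above 0 and 17 below it (median -0.12). The pair medians were 0.12, -0.29 and -0.04, and without Pb replicate 2 the list median was 0.15. Over the end probes the median was 0.03 and that of pair 2 was 0.14, and with the signal trend removed the list median was -0.11. The targets of this list were long, their last probe lying at a median of 2351 nt (901 nt for all targets together), and pair 2 is the pair in which the longest targets lay below control. *chrna4b*, a nicotinic acetylcholine receptor subunit, was higher in all pairs at 0.54, 0.14 and 0.40, and *dlg2*, a postsynaptic scaffold, had 0.00, -0.29 and -0.07. Only 2 probes read *chrna4b*, of which 1 was higher on average. *stmn2b*, a microtubule regulator of growing axons, had -0.01, 0.03 and 0.16.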

How the data were processed

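RNA of pools of 50 zebrafish larvae was labeled with Cy3 and hybridized to 12 one-color NimbleGen arrays, 3 for each of 4 groups. The authors deposited 1 linear intensity per probe and array for 385000 probes. Quantile normalization and RMA are stated (version not given in the sources used here). The values were found to be quantile normalized within each control and Pb pair and not across pairs. All columns were used. Median deposited intensities at 120 hpf ran from 376 to 531.

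Values were log2 transformed and quantile normalized across all 12 arrays, and the probes of a target were averaged, with no filter on dim targets and no further background correction. Tests were run in limma 3.58.1 under R 4.3.3, and tables were read with the data.table package (version 1.17.8). lmFit and eBayes (limma) were run on the 4 groups with no block. The contrasts were Pb minus control at 120 hpf and its difference from 72 hpf, and p was adjusted by Benjamini-Hochberg at 0.05. Targets were named through the platform's annotation (2626) and RefSeq accessions (37), giving 2650 symbols, and 34494 targets stayed unnamed. Replicate numbers were taken to pair the arrays, because deviations from the group means correlated within numbers 1, 2 and 3 (r = 0.548, 0.434 and 0.268). Pools count as replicates, as the labels state.

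Genes named are those past either criterion, the 10 highest and the 10 lowest log2 ratios among named targets with one sign in all pairs and no overlap, up to 3 members of each list with one sign in all pairs, the brightest member of each list, *havcr1*, and, for the organs described, other list members, added after their values were seen. The comparison, the gene lists and the rule were chosen with earlier results of these data known. Alternatives were the values as deposited, median centering, median polish, the lowest 25% of targets left out, the replicate block, only the arrays of 120 hpf, array weights and each array left out. A loess trend with signal removed from each array and the end probes alone, at most 500 nt upstream of the final probe, were added after the data were seen. The test was checked on simulated data with independent noise on each array. That check had no pairs, so it does not cover the pairing seen in these arrays.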

Additional observations from a re-analysis of the deposited data

How the results depend on the processing

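limma called 0 targets in every setting tried, with a smallest adjusted p of 0.276 without Pb replicate 1 and 0.45 with array weights, where control replicate 3 alone had a weight of 13. With the replicate block it called 0, took 381 at an unadjusted p under 0.05 against 112, and changed no call. That unadjusted count and its split also moved, to 16 higher and 3 lower on the values as deposited, 979 and 1479 with array weights, and 89 and 292 without Pb replicate 2. The count with array weights, 2458, lay above a share of 0.05 of the targets. The count of targets past either criterion, 87, was 266 over the end probes (129 higher and 137 lower), and ranged from 72 to 575 with 1 array left out. It was 387 without control replicate 1, 550 without Pb replicate 1, 325 without control replicate 2 and 575 without Pb replicate 2. With an array left out, criterion b asked only for the pairs that stayed complete, and the t-test had fewer arrays. The left-out counts are therefore not the same measure as 87. Splits moved too: 47 higher and 25 lower without control replicate 3, and 40 each way without Pb replicate 3. Of 83 named genes, 59 kept their sign in all 12 settings, and 24 did not, over 55 of 996 values. Most of the 83 were chosen with one sign in all pairs, and the replicate block cannot change a log2 ratio. The count of kept signs is therefore largely set by the choice of genes and is no test of them. With median polish the log2 ratio was 0.00 for *crybb1*, 0.05 for *hbae3* and 0.08 for *tnni1b*. With the signal trend removed, which like the end probes was chosen after seeing the data, it was 0.00 for *crhbp*, 0.06 for *crybb1*, 0.04 for *hbae3* and -0.03 for *mgp*. Over the end probes it was -0.20 for *pnpla3*, 0.07 for *tnni1b*, -0.04 for *stmn2b*, 0.07 for *kdr*, 0.01 for *abcg2a*, 0.07 for *crygm2d4*, 0.01 for *crybb1*, 0.04 for *hmgb1a*, -0.07 for *mgp* and -0.10 for *slc13a3*. With 1 array left out it ranged from -0.28 to 0.11 for *abcg2a*, -0.20 to 0.13 for *crhbp*, -0.94 to 0.26 for *cyp2aa4*, -0.53 to 0.02 for *dct*, -0.31 to 0.13 for *dlg2*, -0.08 to 0.14 for *drd2a*, -0.44 to 0.00 for *fabp7a*, -0.03 to 0.22 for *gatm*, -0.05 to 0.08 for *gc*, -0.68 to 0.20 for *gpx7*, -0.02 to 0.19 for *havcr1*, -0.22 to 0.14 for *hbae3*, -0.15 to 0.03 for *hmgb1a*, -0.09 to 0.25 for *kirrel3l*, -0.11 to 0.17 for *mgp*, -0.25 to 0.04 for *pde6hb*, -0.08 to 0.15 for *pnpla3*, -0.29 to 0.06 for *rs1a*, -0.02 to 0.15 for *stmn2b* and -0.14 to 0.20 for *tnni1b*. The cause of these changes was not tested. With 3 arrays a group, the number of arrays limits the precision, and the table holds no measure of signal over background.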

Other observations

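Gene groups outside the main organs gave small and mixed values. Of 20 targets of lipid and cholesterol metabolism, 13 had a mean log2 ratio below 0 and 7 above, with a median of -0.08 that turned to 0.08 without Pb replicate 1. *acsl1b* and *acsl1a*, which activate long-chain fatty acids, were lower in all pairs, with pair ratios of -0.41, -0.59 and -0.13 and of -0.08, -0.50 and -0.35, and *insig2*, which holds back sterol synthesis, was higher in all pairs at 0.21, 0.41 and 0.27. Of 11 genes of metal binding and oxidative stress, 6 lay above 0 and 5 below. Among them the peroxidase *gpx4b* had -0.14, -0.21 and -0.36 and the peroxiredoxin *prdx1* had 0.13, 0.11 and 0.50. No metallothionein was among the 11, so this list does not speak to that family. Of 13 targets of innate immunity 8 lay above 0 (median 0.05), but with the signal trend removed 8 lay below 0 (median -0.04). In that list *pglyrp6*, a peptidoglycan recognition protein, had 0.12, 0.34 and 0.77. In vessels, *kdr*, a receptor of vascular endothelial growth factor, had -0.21, -0.29 and -0.21, and *cldn5a*, a tight junction protein, had 0.12, 0.52 and 0.12. *mag*, a myelin protein, had -0.09, -0.29 and -0.47, *krt97*, a keratin, -0.34, -0.19 and -0.15, and the cartilage gene *ucmab* -0.15, -0.34 and -0.18. None of the genes in this paragraph passed limma's test (adjusted p = 1).

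The targets that met both criteria have no gene name here. The 2 highest were ENSDART00000103983 and ZV700S00000569. The first had log2 intensities of 6.57, 6.79 and 6.16 in the controls and 7.63, 10.68 and 8.89 with Pb, with pair ratios of 1.06, 3.89 and 2.73 and 11 of 11 probes higher (mean log2 ratio 2.56, standard error 0.568, unadjusted p = 0.00065 and adjusted p = 1 from limma). The second had 6.89, 7.05 and 6.81 in the controls and 7.72, 9.58 and 8.64 with Pb, with pair ratios of 0.83, 2.54 and 1.83. In both, pair 2 was the farthest from control and pair 1 the nearest. The lowest among the targets past either criterion was OTTDART00000019826, with log2 intensities of 11.57, 11.77 and 11.79 in the controls and 10.06, 10.12 and 11.44 with Pb and pair ratios of -1.51, -1.64 and -0.35. These 3 targets were chosen for mention after their values were seen.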
